A study of Homo sapiens with 3 samples.

Results

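HSF1 and 9 cytosolic chaperones of the heat shock system (HSPA1A, HSPA1B, HSPA8, HSPA4, HSPH1, DNAJB1, HSP90AA1, HSP90AB1 and HSPB1) were followed in ribosome profiling of human cells that expressed wild-type or mutant p53. These 10 genes were chosen by name out of 63241 in the table, as the transcription factor of the heat shock response and the chaperones known to associate with mutant p53, and all 10 were among the 19820 genes that passed the filter on low counts. HEK293T is an embryonic kidney line whose SV40 large T antigen binds p53. Every group carried a p53 construct, either wild type (WT) or with 1 of 2 hotspot changes in the DNA-binding domain, G245S or R273H. The methods describe the cells as lentiviral lines kept under puromycin. All groups grew in the same medium with no heat stress named, and all were given cycloheximide, which halts ribosomes on the mRNA, for 2 min at 37 °C before harvest. The labels call the mutant cells both stable and transient, and in 1 field they name the wrong construct for the mutants, so groups were taken from the titles.

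Each group had 3 dishes, which were treated as replicates (n = 3 dishes per group). The dishes of a group were pooled at reverse transcription, separately from those of the other groups, so group and pool cannot be told apart in any comparison and p-values measure only the spread between dishes. A library held 18.7 to 24.6 M counts. Pairs of dishes 1 and 2 had a chi-square per degree of freedom of 1.48 to 1.56. Pairs with dish 3 had 1.88 to 2.62. Gene deviations correlated with coding length at -0.18 to -0.14 in WT, -0.01 to 0.12 in G245S and 0.14 to 0.20 in R273H. For GC content, dish 3 had the lowest correlation of every group (WT -0.18, G245S -0.19, R273H -0.43). Dishes 1 and 2 were higher (WT 0.26 and 0.13, G245S 0.35 and 0.30, R273H -0.18 and -0.14). KRT18, an epithelial keratin, was at 107 to 122 CPM (counts scaled to a common library total), and SALL1, a factor of kidney development, at 32.7 to 39.6 CPM, whereas KRT19 had at most 1 count in any library. PTPRC, a leukocyte marker, had at most 3 counts. MDM2, a direct target of p53, fell from 863 CPM in WT to 76.0 in G245S and 76.9 in R273H.

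Heat shock proteins keep other proteins folded. HSP70 binds exposed hydrophobic stretches under the control of its own ATPase, J-domain proteins such as DNAJB1 bring clients and stimulate the ATPase, and HSP110 proteins such as HSPA4 and HSPH1 exchange its nucleotide; clients can then pass to HSP90, while small heat shock proteins such as HSPB1 hold unfolded proteins without ATP. HSF1 is kept inactive by chaperones, and when they are drawn away by unfolded proteins it forms trimers, binds heat shock elements (inverted repeats of GAA units) and switches on the inducible members. The DNA-binding domain of p53 is a client of this system, and many mutants remain bound to HSP70 and HSP90.

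Footprints of HSPA1A and HSPA1B can hardly be told apart, which bears on every value of these 2 stress-inducible HSP70 genes. Each is a single exon on chromosome 6 (GRCh38), HSPA1A (ENSG00000204389) at chr6:31815543-31817946 and HSPA1B (ENSG00000204388) at chr6:31827738-31830254, both on the plus strand. Their coding sequences of 1923 nt differed at 4 positions, G1710T, G1860C, C1905T and A1920G, with the HSPA1A base first and positions counted from 1 at the start codon, and they shared an identical run of 1709 nt. The windows below, coding positions 1891 to 1920 at chr6:31817647-31817676 and chr6:31829841-31829870, hold the last 2 of these differences, in capitals. Of the 1894 windows of 30 bases in each coding sequence, only 79 in HSPA1A and 49 in HSPA1B occurred in no transcript of another annotated gene.
HSPA1A: tctgggtcaggcccCaccattgaggaggtA
HSPA1B: tctgggtcaggcccTaccattgaggaggtG

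The share of such unique windows divided the members. HSF1, HSPA4 and HSPH1 were unique over 100% of their windows, DNAJB1 over 81.3% and HSPB1 over 70.1%. HSP90AB1, HSPA8 and HSP90AA1, which have many processed pseudogenes, were unique over 48.8%, 45.9% and 40.4%. HSPA1A and HSPA1B stood at 4.17% and 2.59%, so their summed counts are tested beside each of them below, and their separate levels and ranks depend on how the authors' counting divided shared reads.

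**Figure D1:**
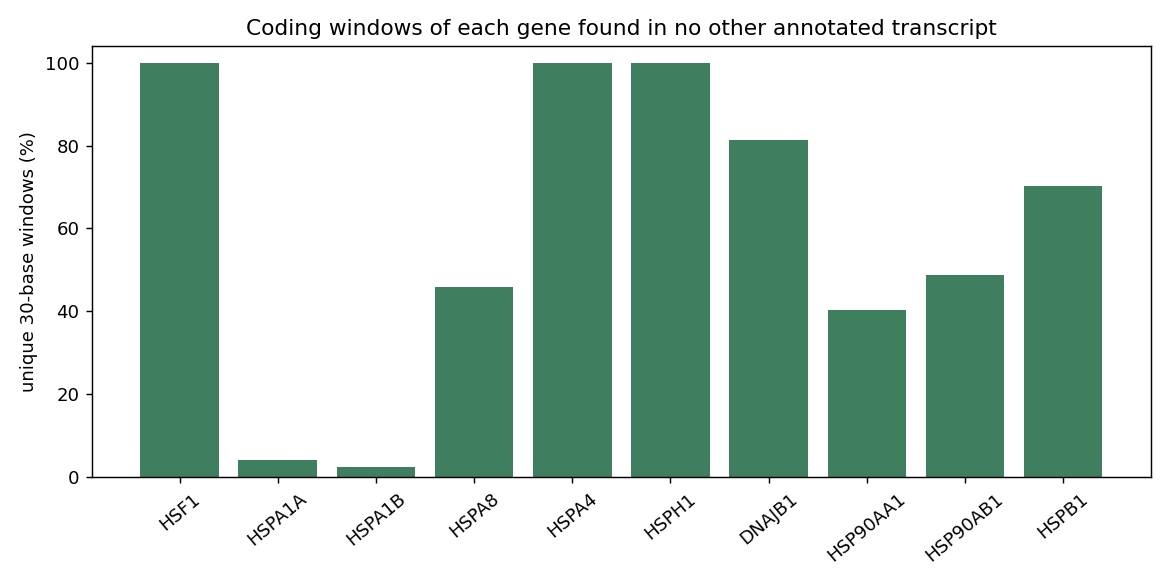
Percent of the 30-base windows of each member's coding sequence (y axis) that occur in no annotated transcript of another gene. HSF1, HSPA4 and HSPH1 reach 100%, the HSP90 genes and HSPA8 lie between 40.4% and 48.8%, and HSPA1A and HSPA1B fall to 4.17% and 2.59%.

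Heat shock elements were searched in promoters (250 bases before to 50 after the RefSeq start site, GRCh38.p14) because HSF1 acts through them. An inverted pair of units, GAANNTTC or TTCNNGAA on either strand (each reads the same on both), was present in 13.7% of 27305 promoters, and 3 alternating units, GAANNTTCNNGAA or TTCNNGAANNTTC, in 0.487%. Each stretch of 3 units also contains 2 overlapping pairs. Promoters were found for 9 members, HSF1 not among them. HSPA1A, HSPA1B and HSPB1 held 1 pair each, and HSPA8 held 4 pairs, among them 2 stretches of 3 units. HSPA4, HSPH1, DNAJB1, HSP90AA1 and HSP90AB1 held no match in this window. Only exact units around 1 start site per gene were searched. Imperfect units, other start sites and more distant sequence were not covered, so no match does not mean no heat shock element. For each gene the window around its first match is printed 5′ to 3′ on the strand of the gene, with the GAA and TTC units in capitals. For HSPA8 this is the first stretch of 3 units, and the other stretch is not shown. The windows lie at chr6:31815426-31815455 (plus strand, 106 nt upstream of the start site), chr6:31827622-31827651 (plus, 105 nt), chr11:123062345-123062374 (minus, 230 nt) and chr7:76302480-76302509 (plus, 182 nt). Distances are counted to the first capital of each window.
HSPA1A: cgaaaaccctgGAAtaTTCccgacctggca
HSPA1B: cgaaacccctgGAAtaTTCccgacctggca
HSPA8: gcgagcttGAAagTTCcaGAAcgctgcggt
HSPB1: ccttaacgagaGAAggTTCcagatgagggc

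The members with a match did not move as a group, as described gene by gene below: HSPB1 rose in both mutants, HSPA8 fell in both, and the HSPA1A and HSPA1B sum fell only in R273H at the threshold used. A match describes the letters and not HSF1 binding, which was not measured here.

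Of the 10 members, 7 were among the genes with the most footprint counts in these cells, for which no heat stress was named. Together the 10 members took 1.10% ± 0.0155 of all counts in WT (SD, n = 3), 1.12% ± 0.0066 in G245S and 1.09% ± 0.0165 in R273H. By mean CPM, HSPA8 ranked 2 of the 19820 genes tested, HSP90AB1 7 and HSP90AA1 9. HSPA1B, HSPA4, HSPA1A and HSPH1 ranked 122, 222, 223 and 325, and these 7 members all belonged to the 1982 most abundant genes. HSPB1 ranked 2278, DNAJB1 2482 and HSF1 3972.

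Between genes, levels were compared as CPM per kb of coding length. The constitutive HSP70 gene HSPA8 stood at 1847 ± 30.0 CPM per kb in WT (SD, n = 3), the highest of the members. HSP90AB1 followed at 1072 ± 14.2 and HSP90AA1 at 1064 ± 29.7, whose dishes overlapped, although HSP90AA1 came to 912 with its longest coding transcript. HSPA1B was at 460 ± 3.75, HSPA1A at 316 ± 8.76, HSPA4 at 227 ± 3.68, HSPH1 at 165 ± 4.33, HSPB1 at 135 ± 9.60, DNAJB1 at 97.7 ± 1.80 and HSF1 at 35.6 ± 1.10 CPM per kb. Apart from the HSP90 pair, no neighbors in this order overlapped in WT, and the order of HSPA1B and HSPA1A is uncertain because they share reads. In G245S the order was the same except that HSPB1 (188 ± 4.06) and HSPH1 (184 ± 5.97) changed places with overlapping dishes, and HSP90AB1 (1199 ± 13.0) no longer overlapped HSP90AA1 (1141 ± 17.1). In R273H the WT order held, with HSP90AB1 at 1127 ± 18.8 and HSP90AA1 at 1089 ± 29.9 and overlapping dishes.

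**Figure D2:**
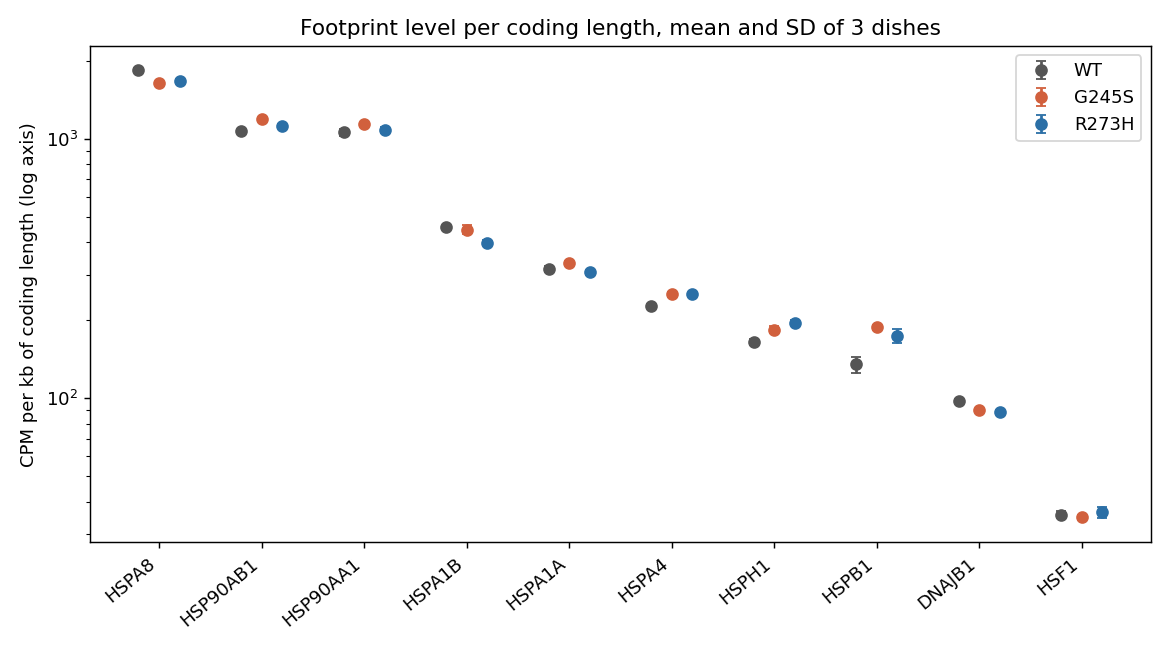
Footprint level of each member in CPM per kb of coding length (log axis), as mean and SD of 3 dishes in WT, G245S and R273H. HSPA8 is highest (1847 in WT) and HSF1 lowest (35.6 in WT), and the differences between groups are small beside those between genes.

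HSF1 itself (ENSG00000185122, chromosome 8, 13 exons, 1587 nt of coding sequence) was nearly level across the groups. Its 3 dishes read 57.4, 57.7 and 54.6 CPM in WT, 54.8, 56.5 and 54.2 in G245S, and 59.4, 59.6 and 54.7 in R273H. All 3 groups overlapped, and dish 3 was the lowest in each. The log2 fold change against WT was -0.016 in G245S (95% interval -0.11 to 0.073, adjusted p = 0.834 by the edgeR quasi-likelihood test, as for all adjusted p-values here) and 0.036 in R273H (-0.050 to 0.12, adjusted p = 0.57). Between the mutants it was -0.053 (-0.14 to 0.034, adjusted p = 0.588). HSF1 ends within DGAT1 on the other strand, whose count was 27.3% that of HSF1, and the use of strand in counting is not stated.

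Of 8 tested heat shock factors and regulators of HSF1 other than HSF1, 3 fell and 0 rose in G245S, and 3 fell and 1 rose in R273H, where 12.1% and 14.6% of all genes were called lower. FBXW7, the ubiquitin ligase subunit that marks HSF1 for degradation, had 25.5 CPM in WT, 10.8 in G245S and 11.4 in R273H, which is -1.21 on the log2 scale for G245S (SE 0.0755, adjusted p = 4.18e-13) and -1.15 for R273H (SE 0.0722, adjusted p = 4.38e-13). NFYA, a subunit of the CCAAT-binding factor NF-Y, fell by 0.17 on the log2 scale in both mutants. HSBP1, which binds the trimerization domain of HSF1, fell by 0.13 and 0.12. Footprints of HSF1 say nothing of its phosphorylation, its trimers or its location.

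The inducible HSP70 genes differed between the mutants. HSPA1A had 626.5, 594 and 604 CPM in WT, 649.6, 641 and 630.1 in G245S, and 599, 593 and 577 in R273H. HSPA1B had 878, 892 and 884 CPM in WT, 896, 862 and 829 in G245S, and 765, 755 and 786 in R273H. In R273H every dish of HSPA1B was below every WT dish, whereas in G245S it was every dish of HSPA1A that was above WT.

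Against WT, HSPA1A rose in G245S (log2 fold change 0.095, SE 0.0244, adjusted p = 0.00472) and was not called in R273H (-0.043, SE 0.0243, adjusted p = 0.193). HSPA1B was not called in G245S (-0.017, SE 0.0263, adjusted p = 0.689) and fell in R273H by 0.20 (SE 0.0262, adjusted p = 1.09e-06). Because the 2 genes share nearly all their windows, the sum is the firmer value. HSPA1A plus HSPA1B averaged 1493 ± 10.1 CPM in WT (SD, n = 3), 1503 ± 43.5 in G245S and 1358 ± 9.06 in R273H. The sum was not called in G245S (0.03, 95% interval -0.016 to 0.079, adjusted p = 0.353). The call of HSPA1A there was thus not shared by the sum, and it was also lost without WT dish 2 (0.07, adjusted p = 0.0528). The sum fell in R273H by 0.13 (SE 0.0231, adjusted p = 5.7e-05).

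Directly between the mutants, HSPA1A was 0.14 higher in G245S than in R273H on the log2 scale (SE 0.0242, adjusted p = 0.0016), HSPA1B was 0.18 higher (SE 0.0262, adjusted p = 0.00017) and the sum 0.17 higher (95% interval 0.12 to 0.21, adjusted p = 0.000124). No dish of either mutant overlapped the other in HSPA1A or HSPA1B. The share of HSPA1A in the counts of the pair was 40.7% ± 0.857 in WT, 42.6% ± 0.589 in G245S and 43.4% ± 0.943 in R273H (SD, n = 3). A long noncoding RNA (ENSG00000285565) overlaps HSPA1B on the same strand with 14.9% of its count, and adding it to the sum gave 0.030 in G245S, -0.13 in R273H and 0.16 between the mutants.

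HSPA8 (ENSG00000109971, chr11:123057489-123063230, minus strand, 9 exons), the constitutive HSC70 of every cell, fell in both mutants. Its dishes read 3558, 3534 and 3645 CPM in WT, 3196, 3208 and 3224 in G245S, and 3253, 3215 and 3303 in R273H. Every mutant dish was below every WT dish, and the mutants overlapped each other. It fell by 0.14 on the log2 scale in G245S (SE 0.0213, adjusted p = 1.59e-05) and by 0.13 in R273H (SE 0.0213, adjusted p = 1.73e-05). In percent, it fell by 9.09% and fell by 8.89%. The mutants differed by -0.0031 (95% interval -0.047 to 0.041, adjusted p = 0.966).

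Per kb of coding length, HSPA8 was 2.38 ± 0.0449 times the HSPA1A and HSPA1B sum in WT, 2.12 ± 0.0709 times in G245S and 2.38 ± 0.0223 times in R273H (SD, n = 3). The G245S dishes lay below both other groups. Thus the constitutive and inducible genes went down by like amounts in R273H, whereas in G245S HSPA8 went down and the inducible sum was not called. The 13 pseudogene rows of HSPA8 held 6.26% to 6.76% of its count in a library, and HSPA8P5 fell by 0.24 and 0.23 in G245S and R273H.

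HSPA4 and HSPH1, HSP110 proteins that exchange the nucleotide of HSP70, rose in both mutants, opposite to HSPA8. HSPA4 (ENSG00000170606, chr5:133052013-133106449, plus strand, 19 exons) had 561, 574 and 579.7 CPM in WT, 633, 625 and 649 in G245S, and 636, 632 and 644 in R273H. HSPH1 (ENSG00000120694, chr13:31134973-31162388, minus strand, 18 exons) had 412, 425 and 434 CPM in WT, 460.0, 473 and 491 in G245S, and 500.3, 498 and 517 in R273H. Every mutant dish of both genes exceeded every WT dish.

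HSPA4 rose by a log2 fold change of 0.17 in G245S (SE 0.0240, adjusted p = 2.93e-06) and 0.16 in R273H (SE 0.0239, adjusted p = 8.23e-06). HSPH1 rose by 0.18 in G245S (SE 0.0278, adjusted p = 1.32e-05) and by 0.26 in R273H (SE 0.0275, adjusted p = 4.81e-08), which is 13.6% and 19.4%. HSPH1 was -0.072 in G245S relative to R273H (95% interval -0.13 to -0.015, adjusted p = 0.176), although their dishes did not overlap. This difference was called in 2 of 21 alternatives, with dish number added to the fit (adjusted p = 0.0101) and without dish 3 of every group (0.0412). It was -0.0007 with the trends on coding length and GC content removed. HSPA4 differed by 0.015 between the mutants (-0.034 to 0.063, adjusted p = 0.826). With the same trends removed, HSPA4 was 0.19 in G245S and 0.11 in R273H against WT. Its difference between the mutants was called in 1 of 21 alternatives, with these trends removed and dish number in the fit (0.080, adjusted p = 0.0114). Per kb, HSPH1 stood at 0.725 ± 0.00741 of HSPA4 in WT, 0.731 ± 0.0162 in G245S and 0.776 ± 0.00873 in R273H (SD, n = 3). Both coding sequences were unique over all their windows, so no annotated copy shares a window with either gene.

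DNAJB1 (ENSG00000132002, chr19:14514769-14560391, minus strand, 3 exons), the J-domain partner of HSPA1A and HSPA8, was lower in both mutants. It had 100.2, 101 and 97.6 CPM in WT, 91.7, 93.4 and 91.5 in G245S, and 88.6, 91.2 and 91.7 in R273H. All mutant dishes lay below all WT dishes. It fell by 0.14 on the log2 scale in R273H (SE 0.0330, adjusted p = 0.00216). In G245S it fell by 0.092 (SE 0.0337, adjusted p = 0.044), a call that ended in 17 of 21 alternatives, among them the removal of any 1 dish (adjusted p = 0.0549 to 0.13), with the direction kept. With the trends on coding length and GC content removed, the value of DNAJB1 in G245S became -0.050 (adjusted p = 0.239) and that in R273H -0.090 (adjusted p = 0.0211). DNAJB1 came to 5.29 ± 0.182 per 100 of HSPA8 in WT, 5.46 ± 0.0699 in G245S and 5.28 ± 0.108 in R273H, per kb (SD, n = 3), where WT overlapped each mutant. TECR overlaps it on the other strand with 214% of its count, and TECR was 0.12 in G245S and -0.039 in R273H. The part of such overlapping reads in the values of DNAJB1 was not tested.

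HSP90AB1 (ENSG00000096384, chr6:44246166-44253888, plus strand, 12 exons), the constitutive HSP90, rose more in G245S than in R273H. It had 2307, 2316 and 2364 CPM in WT, 2636, 2591 and 2583 in G245S, and 2434, 2416 and 2494 in R273H. The 3 groups did not overlap, with R273H between WT and G245S. It was up by 0.18 on the log2 scale in G245S (SE 0.0220, adjusted p = 3.48e-07) and 0.073 in R273H (SE 0.0219, adjusted p = 0.0121). The call in R273H was lost without WT dish 1 (adjusted p = 0.0685), WT dish 2 (0.0639) or R273H dish 3 (0.095), and with the trends on coding length and GC content removed (0.050, adjusted p = 0.154). G245S exceeded R273H by 0.11 (SE 0.0219, adjusted p = 0.00549), a call lost without G245S dish 1 (adjusted p = 0.0702), R273H dish 1 (0.0556) or R273H dish 2 (0.0611).

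HSP90AA1 (ENSG00000080824, chr14:102080742-102139699, minus strand, 11 exons), the more stress-responsive HSP90, had 2298, 2302 and 2413 CPM in WT, 2525, 2463 and 2531 in G245S, and 2375, 2334 and 2462.5 in R273H. G245S lay above WT in every dish, while R273H overlapped WT. It rose in G245S by 0.12 (SE 0.0256, adjusted p = 0.000992), and in R273H it was 0.034 (95% interval -0.019 to 0.087, adjusted p = 0.35), a value that passed the threshold without WT dish 3 (0.067, adjusted p = 0.034). The difference between the mutants, 0.086 (95% interval 0.034 to 0.14), was not called (adjusted p = 0.0742), but it was in 8 of 21 alternatives. Among these were leaving out WT dish 3 (adjusted p = 0.0146) or R273H dish 3 (0.0301) and adding dish number to the fit (0.00089). Removing the trends with coding length and GC content was another (0.15, adjusted p = 0.000584). Per kb, HSP90AA1 was 0.992 ± 0.0147 of HSP90AB1 in WT, 0.952 ± 0.0149 in G245S and 0.966 ± 0.0106 in R273H (SD, n = 3), with both mutants below WT in every dish.

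Pseudogene rows held 10.7% to 12.0% of the HSP90AA1 count (5 rows) and 8.20% to 8.95% of the HSP90AB1 count (11 rows). The most abundant, HSP90AA2P and HSP90AB3P, rose by 0.20 and 0.30 in G245S, and by 0.13 and 0.15 in R273H. They moved in the direction of their parent genes, and how reads were divided between parent and copy was not tested.

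HSPB1 (ENSG00000106211, chr7:76302673-76304295, plus strand, 3 exons), the small heat shock protein HSP27, had the largest change of the 10 members in both mutants. It had 86.0, 87.3 and 76.5 CPM in WT, 118, 116 and 113.5 in G245S, and 113, 109 and 99.8 in R273H. All mutant dishes were above all WT dishes, and dish 3 was lowest in each group. HSPB1 rose by 0.50 on the log2 scale in G245S (SE 0.0447, adjusted p = 1.37e-08) and by 0.37 in R273H (SE 0.0442, adjusted p = 1.06e-06), or 41.0% and 29.0%. The mutants differed by 0.13 (95% interval 0.041 to 0.22, adjusted p = 0.117). That difference passed the threshold without WT dish 3 (adjusted p = 0.0432) and with dish number added to the fit (0.00404). It was 0.068 with the trends on coding length and GC content removed (adjusted p = 0.246).

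HSPB1 has the shortest coding sequence of the members, 615 nt, at the 17.0 percentile of coding length, and libraries differed in their trend with length. With the trends on coding length and GC content removed, HSPB1 was up by 0.54 in G245S and by 0.48 in R273H on the log2 scale. Of the 8 other small heat shock proteins listed, only HSPB8 passed the filter, with a log2 fold change of -0.33 in G245S and -0.17 in R273H, neither called. CRYAB, which often pairs with HSPB1 in muscle and lens, averaged 2.44 counts per library.

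**Figure D3:**
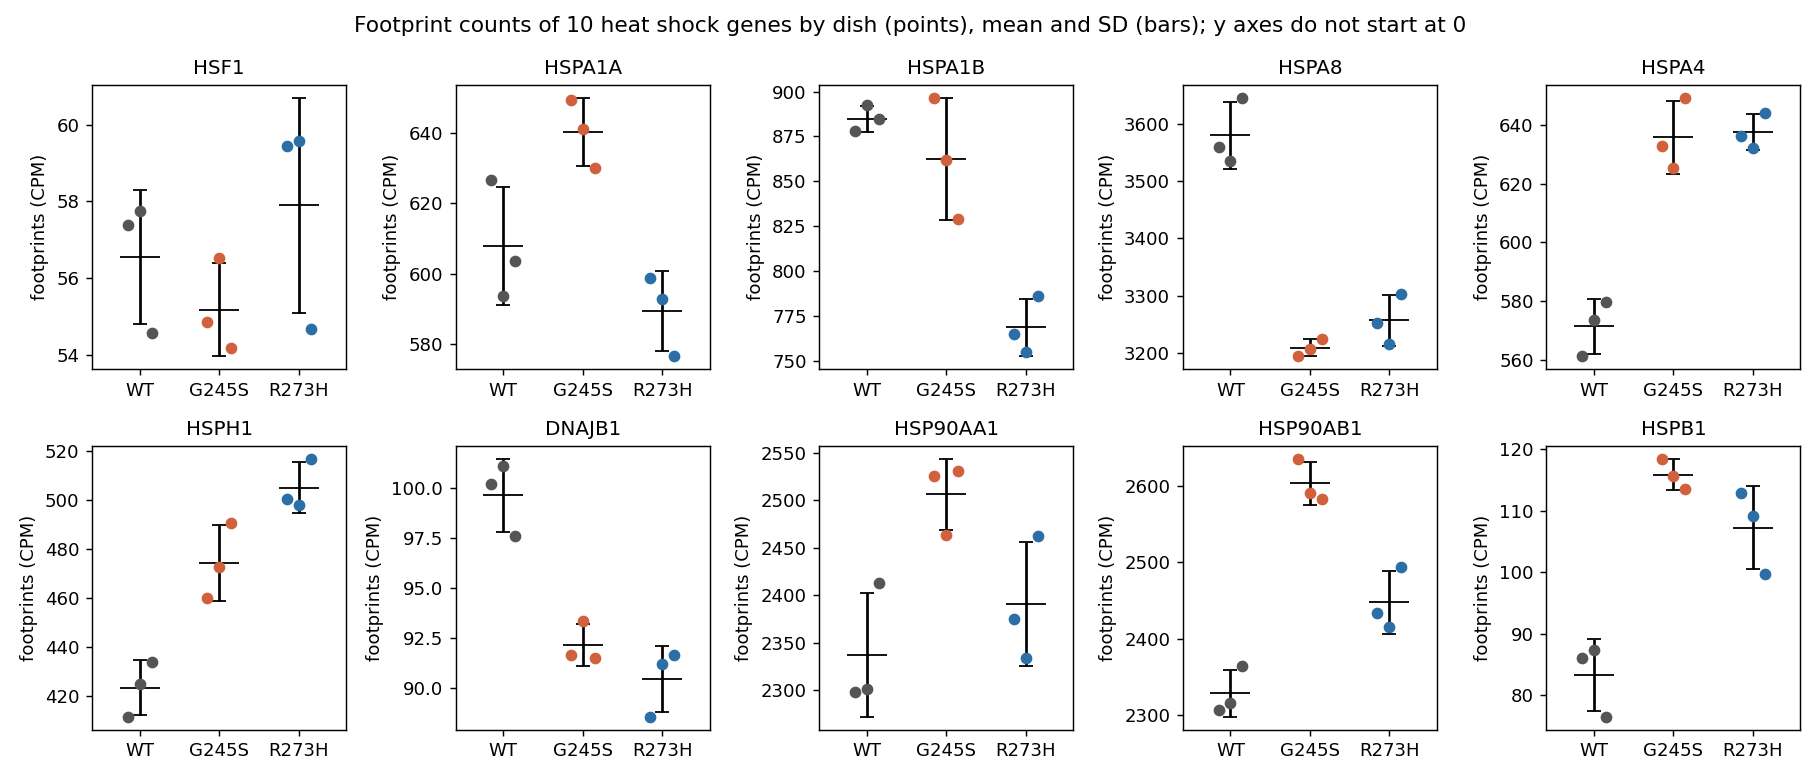
CPM of each member in each dish (points) with the mean and SD of 3 dishes (bars), in WT, G245S and R273H, each panel with its own y axis that does not start at 0. HSPA8 and DNAJB1 sit lower in all mutant dishes, HSPA4, HSPH1, HSP90AB1 and HSPB1 higher in all mutant dishes, HSPA1B is low in R273H alone, and the HSF1 groups overlap.

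Counted over the members, 8 of 10 passed the test in G245S against WT (6 up, 2 down) and 7 of 10 in R273H (4 up, 3 down). Calls were common among all genes: G245S had 24.7% of the 19820 genes called (12.6% higher, 12.1% lower) and R273H 28.8% (14.2% higher, 14.6% lower). Among the 1982 most abundant genes, to which 7 members belong, G245S had 53.9% called (35.4% higher, 18.5% lower) and R273H 59.3% (33.4% higher, 25.9% lower). Directly between the mutants 3 of 10 members were called, all higher in G245S, against 2.59% of all genes (1.86% higher, 0.732% lower) and 10.1% of the most abundant ones. Dishes did not overlap for 8 members in G245S against WT, 7 in R273H against WT and 6 between the mutants, which compares with 37.5%, 41.1% and 21.8% of all genes. The members' counts are thus read against a high background, and of the 3 calls between the mutants HSPA1A and HSPA1B share reads.

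The median of the members lay at 0.11 on the log2 scale in G245S and 0.035 in R273H against WT, and 0.066 in G245S against R273H. Over the 1982 most abundant genes it was 0.033, 0.016 and 0.015, and over all genes -0.0007, -0.0024 and 0.0006. These medians combine movements in opposite directions. HSPA4, HSPH1, HSP90AB1 and HSPB1 rose in both mutants, HSPA8 and DNAJB1 fell in both, HSPA1A and HSP90AA1 rose in G245S, HSPA1B fell in R273H, and HSF1 was called in neither. Both contrasts against WT share the WT dishes.

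**Figure D4:**
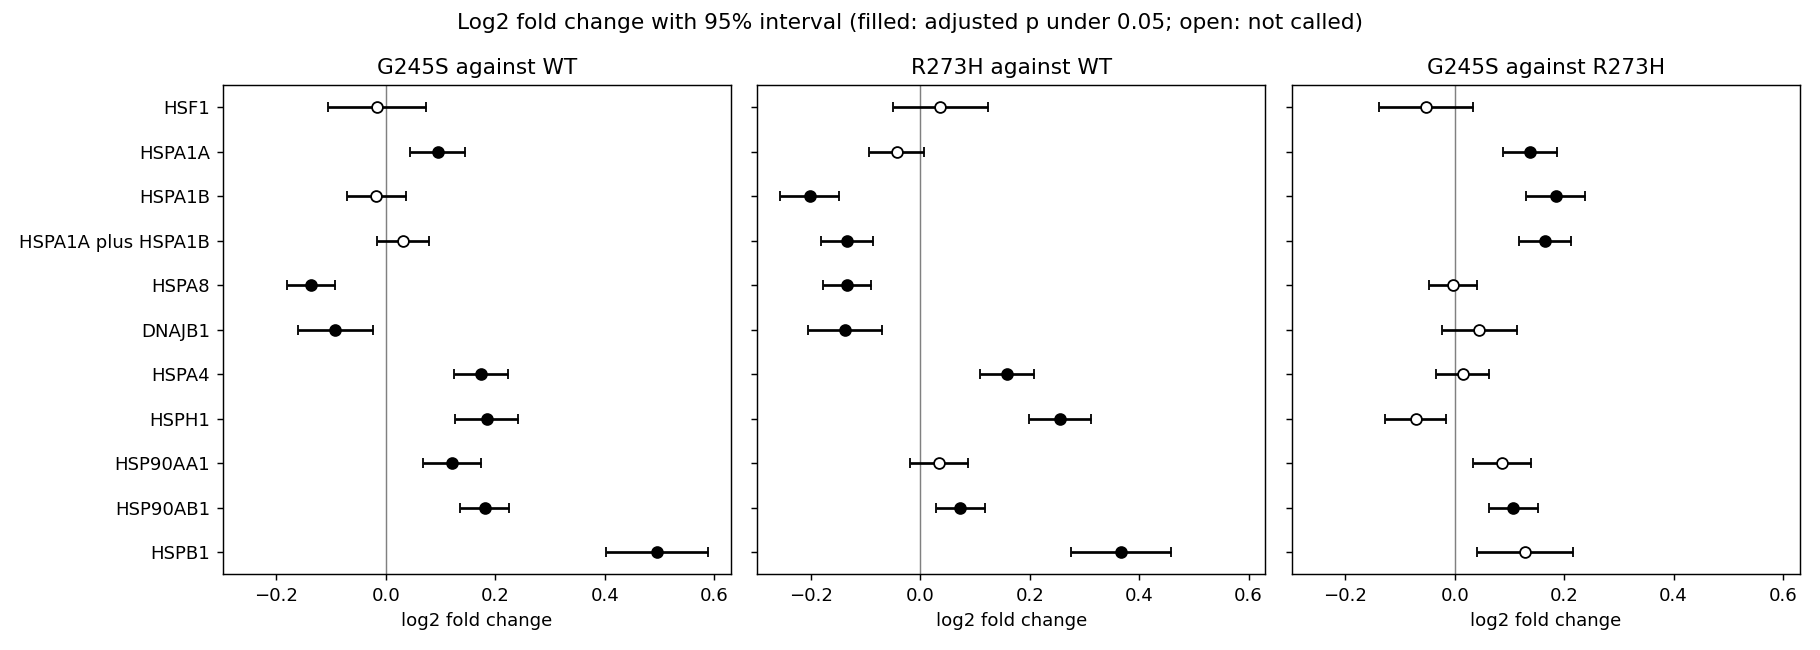
Log2 fold change (x axis) of each member and of the HSPA1A plus HSPA1B sum, with 95% interval, in the 3 comparisons. Filled points passed an adjusted p of 0.05 and open points did not. HSPB1 lies farthest right against WT (0.50 and 0.37), HSPA8 and DNAJB1 lie left of 0, and in the comparison of the mutants only HSPA1A, HSPA1B, their sum and HSP90AB1 are filled.

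Most changes were small. In a test against a fold change of 1.2, HSPB1 in G245S was the only member called, and no member was called in R273H or between the mutants. With edgeR's default test, standard errors ran from 0.0213 for HSPA8 to 0.0447 for HSPB1 against WT in G245S. No spike-in or matched RNA-seq was analysed here, so a fold change is measured against the rest of its library and does not separate the amount of an mRNA from its translation.

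Other genes of the pathway were counted over whole lists, and the genes named from each list are among those with the largest changes called in both mutants. For comparison, of all genes 12.6% rose and 12.1% fell in G245S, while 14.2% rose and 14.6% fell in R273H. Of 6 tested cytosolic HSP70 and HSP110 genes outside the members, 2 rose and 2 fell in G245S, and 2 rose and 3 fell in R273H. HSPA4L, the third HSP110 gene, fell by 0.47 and 0.38, from 259 CPM in WT to 185 and 199, opposite to HSPA4 and HSPH1. HSPA14, the HSP70 of the ribosome-associated complex, rose by 0.20 and 0.21. Of 14 tested J-domain proteins outside the members, 6 fell and 1 rose in G245S and 7 fell and 2 rose in R273H. Among them were DNAJC21, a factor of ribosome assembly (-0.39 and -0.34), and DNAJB2, a neuronal J-domain protein (-0.30 and -0.37).

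Of 10 tested exchange factors and partners of HSP70, 2 rose and 1 fell in G245S and 2 rose and 3 fell in R273H. BAG1, an exchange factor that links HSP70 to the proteasome, fell by 0.21 and 0.29, and BAG2, which inhibits CHIP, rose by 0.12 and 0.17. Of 23 HSP90 co-chaperones, 9 rose and 2 fell in G245S and 7 rose and 3 fell in R273H. PPID, a cyclophilin of HSP90 complexes, rose by 0.18 and 0.19, CHORDC1, an HSP90-binding protein that responds to heat, by 0.095 and 0.14, whereas FKBP8, a membrane-bound immunophilin, fell by 0.15 and 0.24.

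Of 22 tested heat shock response genes outside the members, 6 rose and 3 fell in G245S, and 6 rose and 5 fell in R273H, with medians of 0.0022 and -0.016. HSPD1, the mitochondrial chaperonin, rose by 0.25 in both. All 8 subunits of the CCT chaperonin, which folds actin and tubulin, rose in both mutants, with medians of 0.19 and 0.17, led by TCP1 at 0.29 and 0.24. These subunits belong to the 1982 most abundant genes, of which 35.4% rose in G245S and 33.4% in R273H. The medians of those abundant genes were 0.033 and 0.016. Of 15 endoplasmic reticulum chaperones, 4 rose and 1 fell in G245S, and 5 rose and 1 fell in R273H, and of 9 mitochondrial chaperones 5 rose and 0 fell in both.

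**Figure D5:**
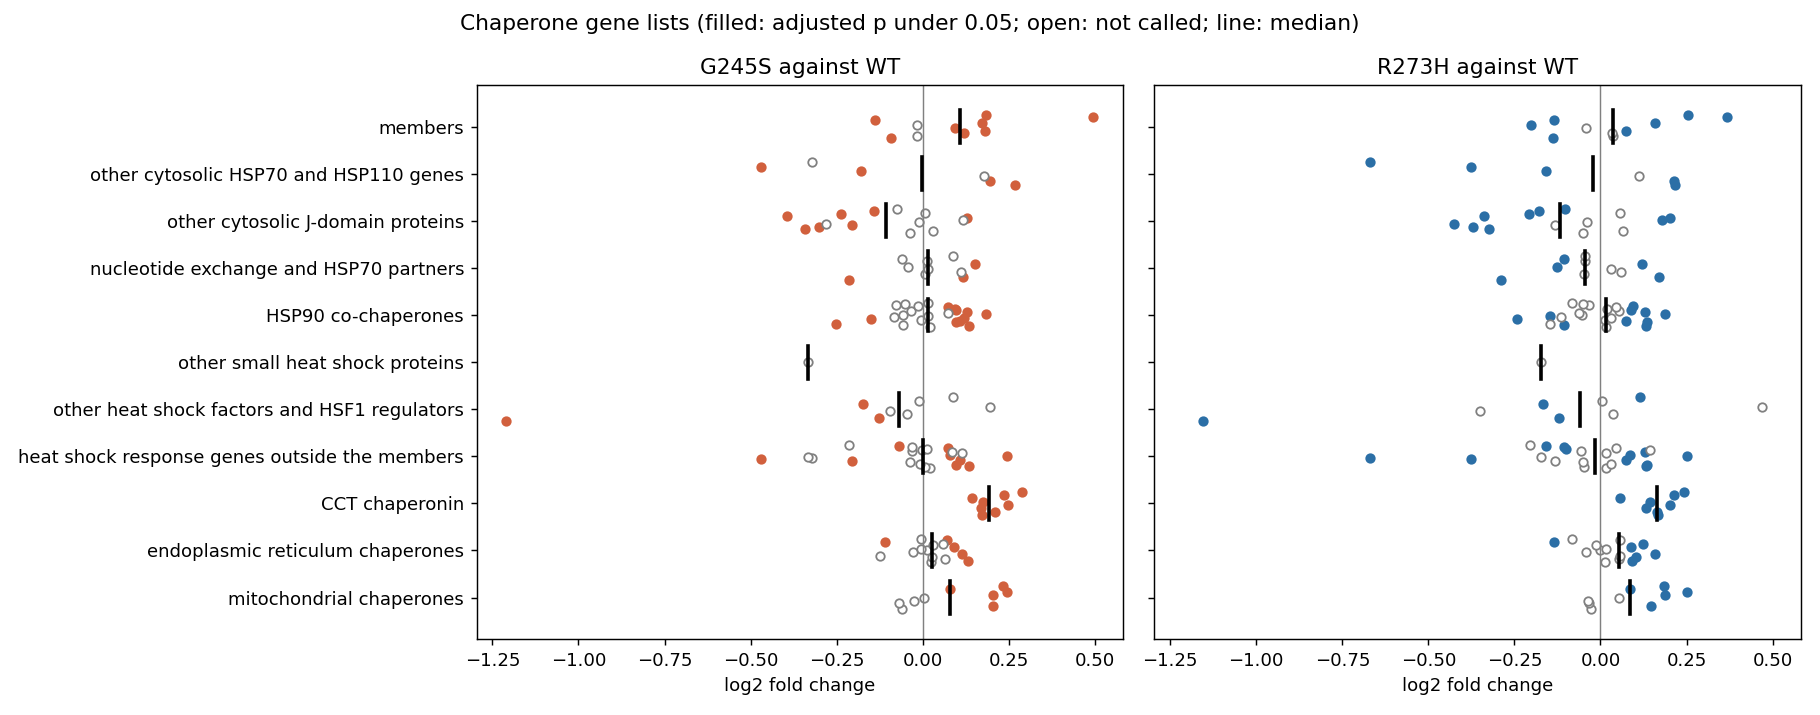
Log2 fold change against WT (x axis) of every tested gene of each chaperone list, for G245S and R273H, filled where the adjusted p was under 0.05 and open otherwise, with a line at the median. The CCT chaperonin lies entirely right of 0 (medians 0.19 and 0.17), the J-domain proteins lean left, and FBXW7 is the point farthest left (-1.21 and -1.15).

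The genes most like the HSPA1A and HSPA1B sum across the 9 libraries, by Pearson's r of log2 CPM among 12651 genes averaging 100 counts or more, were H2BC18 (r = 0.99), H4C8 (0.99), MARCKS, an actin-binding membrane protein (0.98), H2BC15 (0.98) and the U2 snRNA pseudogene RNU2-37P (0.98). Of these, 3 are histone genes. The members were far less like it, with DNAJB1 at 0.58, HSP90AA1 at 0.37, HSPA8 at 0.32, HSP90AB1 at 0.30, HSPB1 at -0.09, HSPA4 at -0.26, HSF1 at -0.51 and HSPH1 at -0.57. These r describe 9 libraries that fall into 3 groups and share pools within a group.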

How the data were processed

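Monosome footprints were sequenced from cells given cycloheximide for 2 min, and lysates were digested for 30 min with micrococcal nuclease (3 U per μg of RNA). According to the authors' methods and processing notes, reads were trimmed (Trim Galore, cutadapt), UMIs were read (UMI-tools) and reads were aligned to GRCh38 (STAR). The table deposited by the authors gives, for each gene, expected counts of footprints, estimates that need not be whole and are not scaled for depth or length, and 61.5% to 63.7% of nonzero values in a library were not whole. The counting tool, its annotation, strand setting and handling of reads that map to several genes are not given in the sources used here.

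Expected counts were rounded, and all 9 dishes were fitted by group with edgeR 4.0.16 in R 4.3.3 (TMM, filterByExpr, robust glmQLFit, glmQLFTest, two-sided), with Benjamini-Hochberg adjustment over 19820 genes, threshold 0.05 and 6 residual degrees of freedom. CPM are counts scaled to a common total without TMM factors; tests use TMM factors. GENCODE v44 (GRCh38), which 99.09% of genes matched, gave coordinates, coding sequences and the windows of 30 bases, and RefSeq (GRCh38.p14) the promoters.

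All members are named. Of each other list, up to 3 genes called in both mutants with the largest changes were eligible. Members and lists were chosen with earlier results of these data known. Alternatives were DESeq2 1.42.0, other scalings, no filter, a test against a fold change of 1.2, only the dishes compared, a replicate block, removal of trends with coding length and GC content, summed copies, and leaving out dishes. Adding the long noncoding RNA to the sum was chosen after seeing the data.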

Additional observations from a re-analysis of the deposited data

Results flagged for a closer look

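For 3 members the effects of the 2 mutants differed from each other by a direct test (edgeR, G245S against R273H). HSPA1A was 0.14 higher in G245S on the log2 scale (adjusted p = 0.0016), higher in 3 of 3 G245S dishes than in any R273H dish. HSPA1B was 0.18 higher (adjusted p = 0.00017), again in 3 of 3 dishes. HSP90AB1 was 0.11 higher (adjusted p = 0.00549), in 3 of 3 dishes. The HSP90AB1 call was lost without G245S dish 1, R273H dish 1 or R273H dish 2. HSPA1A and HSPA1B are not independent, since 95.8% of their coding windows of 30 bases occur in both.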

How the results depend on the processing

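Of 630 member values over 21 alternatives, 557 kept their direction and their side of the threshold, 44 lost a call, 17 gained one and 12 changed sign, none of them called on either side. In G245S against WT, HSPA1B changed sign with the copies summed (0.032), with the long noncoding RNA added (0.030), without G245S dish 3 (0.015) and without dish 3 of every group (0.022), and HSF1 without G245S dish 3 (0.0016). Leaving out 1 dish, HSPA1B ranged from -0.046 to 0.015, HSF1 from -0.031 to 0.0016 and, between the mutants, HSPA8 from -0.014 to 0.013. In R273H against WT, HSP90AA1 became -0.015 with the length and GC trends removed, with or without the block. Between the mutants, HSPA8 became 0.040 with the trends removed, also with the block, 0.0001 without G245S dish 2, 0.013 without R273H dish 3 and 0.010 without dish 3 of every group. The causes were not tested.

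Against a fold change of 1.2, 1 member was called in G245S, 0 in R273H and 0 between the mutants, with 547, 693 and 3 of all genes, since small changes cannot pass it. DESeq2, given the 41954 genes with any count, called 3047 genes in G245S and 3571 in R273H. From the 19820 genes that passed its filter, edgeR called 4900 and 5707. Between the mutants, where edgeR called 3 members and 513 genes, 5 members were called with no filter, and 5 members and 1026 genes without dish 3 of every group. Leaving out 1 dish gave 6 to 7 members in G245S, 6 to 8 in R273H and 2 to 5 between the mutants (5 without WT dish 3), and 162 to 712 genes between the mutants. With the trends removed, calls split into 3291 higher and 1766 lower in G245S, against 2498 and 2402, and into 449 and 73 between the mutants, against 368 and 145. The fit without trends held only 13615 protein-coding genes, with their own adjustment, against 19820 genes in the main fit. These counts therefore do not compare the same genes. Other scalings moved the median of all genes by under 0.02.

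Dish numbers were not taken as pairs in the main fit, although in 17 of 18 cases a dish correlated best with its own number in another group. Deviations of same-numbered dishes correlated at 0.044 to 0.23 (mean 0.12), against a mean of -0.059 for other numbers. The main fit therefore leaves any spread shared by dish number in its error. With the replicate block, 6 members and 1262 genes were called between the mutants (HSPH1, HSP90AA1 and HSPB1 added, adjusted p = 0.0101, 0.00089 and 0.00404). With the block and the trends removed, 5 members and 909 of 13615 protein-coding genes were called.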
